A study of Mus musculus with 8 samples.

Results

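The genes described here encode the receptors and kinases through which insulin-like growth factor 1 (IGF1) and insulin keep retinal cells alive: the ligand *Igf1*, the receptors *Igf1r* and *Insr*, the adaptor *Irs2*, the kinases *Akt1* and *Akt2*, and the kinases *Gsk3a* and *Gsk3b*. Every probe set whose annotation names 1 of these 8 genes alone was taken, which gave 27 of the 45037 probe sets tested on the array: 6 for *Gsk3b*, 5 for *Igf1r*, 4 each for *Igf1* and *Akt1*, 3 each for *Insr* and *Akt2*, and 1 each for *Irs2* and *Gsk3a*. RNA came from whole retinas of adult C57BL/6J mice raised in dim cyclic light of 5 lux, either left in normal oxygen (control, day 0) or housed at 75% oxygen until day 3, day 7 or day 14, with 2 arrays a time and 8 in all. All groups share the strain, the rearing and an age of 80 to 120 days on the labels. The methods describe 12 retinas from 3 males and 3 females, pooled at each time, and list the arrays as 2 experiments with 1 array of every time in each, without saying whether these were separate pools, so each p-value measures only the spread between arrays, which may be technical. In whole retina, fewer cells of a type and less RNA per cell cannot be told apart.

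When IGF1 or insulin binds its receptor, the receptor phosphorylates adaptors such as IRS2, the adaptors bring phosphoinositide 3-kinase to the membrane, and AKT is activated there. AKT phosphorylates and so inhibits GSK3, along with several proteins that promote cell death. GSK3 in turn marks beta-catenin for destruction together with APC and axin. In the retina this chain is known as a survival pathway of photoreceptors, and mice that lack IRS2 lose them. Most of its regulation is by phosphorylation, which an RNA array does not measure.

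The deposited values are on a log2 scale and stand centred on the median of each probe set over the 8 arrays, so a value of 1 means 2-fold above the middle of that probe set. They hold no level: one probe set cannot be called brighter than another, and whether retinal marker genes were present or another tissue absent could not be checked by level. A difference is the mean of 2 arrays minus the mean of the 2 control arrays, given with its standard error from limma, and its p-value was adjusted over all 45037 probe sets by the Benjamini-Hochberg method.

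The labels of the arrays are in doubt. Over all probe sets, day 3 replicate 2 correlated with day 14 replicate 2 at r = 0.74, the highest of the 28 pairings of arrays, but with day 3 replicate 1 at -0.13, and the day 14 arrays correlated with each other at 0.18. The control arrays correlated with each other at 0.04 and the day 7 arrays at 0.02, so a low r between replicates was not limited to days 3 and 14. For *Gapdh*, the 3' probe set minus the 5' one gave 1.19 and 1.43 on the replicate 2 arrays of days 3 and 14 and from -0.32 to 0.12 elsewhere. The same quantity was 1.0 and 1.24 for beta-actin (-0.94 to 0.44 elsewhere), and 1.04 and 1.4 for bacterial poly-A transcripts, which are spiked in and not made by the retina (-1.38 to -0.26 elsewhere). The chip quality table of the methods puts the higher *Gapdh* ratios on both arrays of the last time and on no other, which is not how they fall under the deposited labels. That table heads the ratio 5'/3', the inverse of the difference used here, so setting them side by side takes its ratios as 3' to 5'. The labels were kept as given, so each day 3 or day 14 mean is that of the arrays so labelled.

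Markers of cell types moved with the arrays as well. The mean over 13 genes of microglia and macrophages was 1.22 and 1.24 on the replicate 2 arrays of days 3 and 14 and ran from -0.27 to 0.23 elsewhere, and that over 10 genes of reactive glia was 1.53 and 1.35 and ran from -0.53 to 0.21 elsewhere. Rod genes (10 measured) had 11 of 12 probe sets below control at day 3 (median difference -0.39) and 11 of 12 at day 14 (-0.23), with a median of 0.01 at day 7. Bipolar cell genes (7 measured, 15 probe sets) had medians of -0.62, 0.05 and -0.09 at the successive times. The rod and bipolar medians were thus below control at the times when *Gsk3b* and *Igf1r* were lower, though only slightly so for bipolar genes at day 14, and near control at day 7. By array, the rod mean was -0.22 and -0.26 at day 3 and 0.01 and -0.25 at day 14. The bipolar mean was -0.29 and -0.27, then -0.10 and -0.22. On the same arrays the *Gsk3b* mean was -0.52 and 0.00, then -0.18 and -0.24. The *Igf1r* mean was -0.56 and -0.05, then -0.09 and -0.17. Retinal ganglion cell genes (8 measured) did not follow the rod and bipolar medians. They had 12 of 14 probe sets higher at day 3 (median 0.13), and medians of -0.09 at day 7 and -0.1 at day 14. The lens genes (13 measured) ran from -2.79 on day 3 replicate 1 to 3.69 on day 7 replicate 2. Corneal epithelium genes (7 measured) stood at 0.7 and 1.75 on the control arrays and at -1.25 and -1.27 on those of day 3. All 13 of their probe sets were lower than control at day 3 (median -2.33) and at day 7 (-1.33). Retinal pigment epithelium genes (7 measured) ran from -0.45 on day 3 replicate 1 to 1.75 on day 7 replicate 2. What part any of these has in the results below was not tested.

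*Gsk3b* and *Igf1r* had most of their probe sets lower than control at day 3 and day 14. At day 7 the differences from control ran from -0.04 to 0.21 for *Gsk3b* and, more widely, from -0.34 to 0.44 for *Igf1r*. All 6 *Gsk3b* probe sets had a lower mean than control at day 3 and at day 14, and 4 of 5 *Igf1r* probe sets did. *Akt1* was split: 1 of its 4 probe sets stood about 4-fold low on 2 arrays, while the other 3 stayed within -0.35 to 0.25 on every array. None of the 27 probe sets passed adjusted p in limma at any time, as for 0% of all probe sets. At an unadjusted p under 0.05 in limma, 2 of the 27 differed from control at day 3 (background 10.3% of all probe sets), 0 by day 7 (0.864%) and 3 by day 14 (8.27%), all of them lower.

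**Figure D1:**
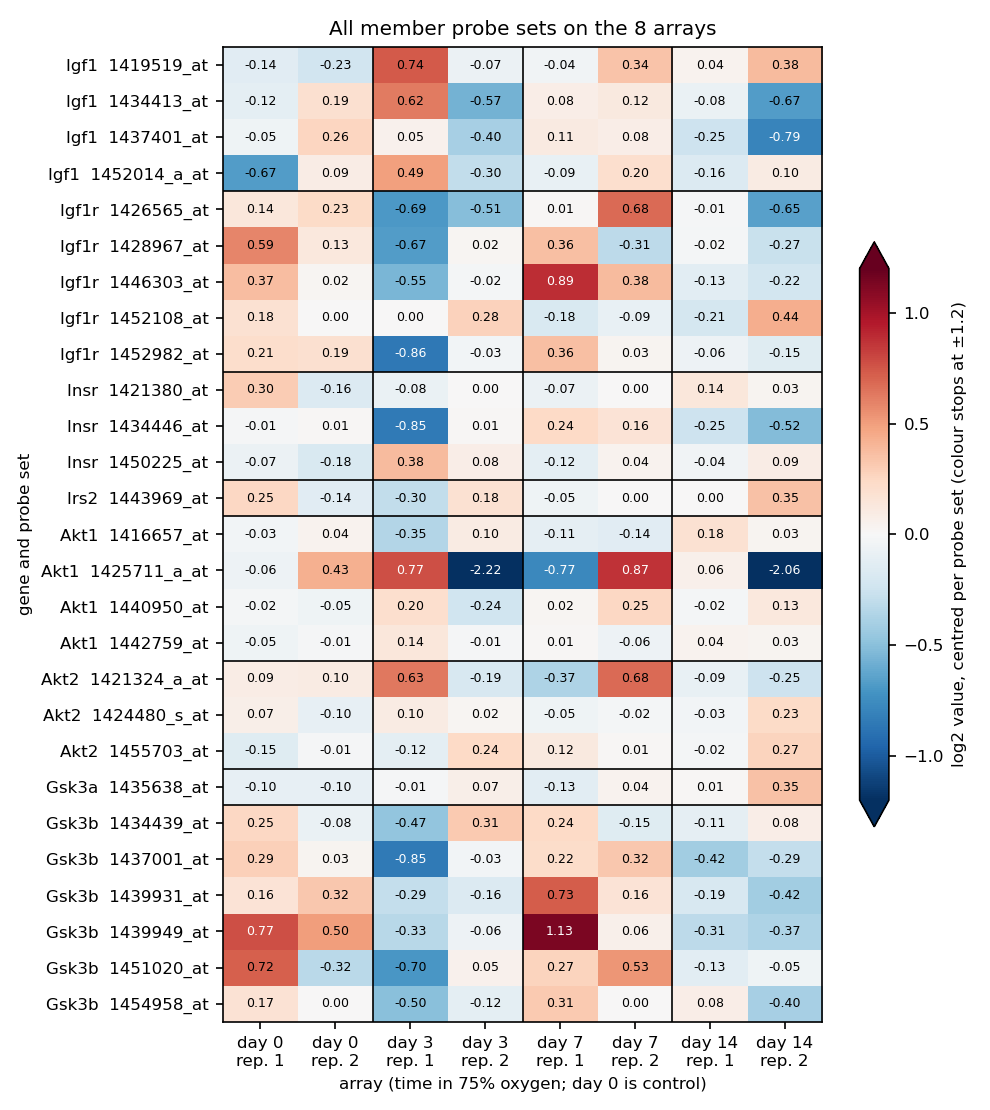
Centred log2 values of the 27 probe sets (rows, grouped by gene) on the 8 arrays (columns, by day in 75% oxygen and replicate); colour runs from blue (below the median of the probe set) to red (above) and stops at 1.2 in either direction, with each value printed in its cell. Most *Gsk3b* and *Igf1r* rows are blue at day 3 and day 14, and *Akt1* 1425711_a_at is at -2.22 and -2.06 on 2 arrays.

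Because the *Igf1r* and *Gsk3b* probe sets had their lower values at the same times, the 250 bases before the start of each gene are shown, from RefSeq annotation of GRCm38.p6, in lower case with 2 promoter motifs in capitals. The motifs, picked after these values were seen, are the GC box, which is spelled GGGCGG and binds SP1, and the CCAAT box, which binds NF-Y, each searched on both strands. They do not overlap here. The *Igf1r* window lies on the plus strand at chr7:67952007-67952256, and the *Gsk3b* window on the plus strand at chr16:38088751-38089000.
*Igf1r*: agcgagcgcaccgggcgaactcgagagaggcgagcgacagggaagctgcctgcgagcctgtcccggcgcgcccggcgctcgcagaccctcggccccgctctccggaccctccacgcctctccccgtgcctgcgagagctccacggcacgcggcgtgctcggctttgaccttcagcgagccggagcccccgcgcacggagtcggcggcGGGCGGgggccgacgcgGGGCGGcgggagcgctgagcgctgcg
*Gsk3b*: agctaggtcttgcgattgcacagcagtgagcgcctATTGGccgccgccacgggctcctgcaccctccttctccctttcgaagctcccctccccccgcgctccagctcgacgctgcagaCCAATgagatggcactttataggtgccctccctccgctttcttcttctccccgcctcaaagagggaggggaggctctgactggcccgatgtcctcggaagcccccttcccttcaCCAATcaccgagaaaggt
The *Igf1r* window held 2 GC boxes and 0 CCAAT boxes, and was 77.6% G and C with 42 CG pairs. The *Gsk3b* window held 0 GC boxes and 3 CCAAT boxes, and was 62% G and C with 15 CG pairs. Of 32851 windows of the same length, 16.7% held 2 or more GC boxes and 2.79% held 3 or more CCAAT boxes, and the median was 52.4% G and C with 6 CG pairs. The windows of *Igf1r* and *Gsk3b* shared neither motif, and a match is a description of the letters alone. Of the other members, *Akt1* has 2 annotated starts, whose windows held 0 and 4 GC boxes, and 7 of the 8 genes had a window.

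*Igf1*, the ligand, is a secreted growth factor that glia and vessels supply to neurons. The probe set with the largest spread, 1434413_at, stood at -0.12 and 0.19 on the control arrays, 0.62 and -0.57 on the day 3 arrays, 0.08 and 0.12 on those of day 7, and -0.08 and -0.67 on those of day 14. The 2 arrays of day 3 lay on opposite sides of control, and their mean did not differ from it (0.00 ± 0.39, adjusted p = 0.998, limma). Probe set 1437401_at stood at -0.05 and 0.26 in control, 0.05 and -0.40 on the day 3 arrays, 0.11 and 0.08 on those of day 7, and -0.25 and -0.79 on those of day 14. At day 14 both arrays lay below both controls, with a difference of -0.62 ± 0.24 (unadjusted p = 0.0382, adjusted p = 0.583, limma). It was -0.35 with replicate 2 of day 14 left out. The other *Igf1* probe sets pointed the other way. Probe set 1419519_at stood at -0.14 and -0.23 in control and at 0.74 and -0.07, -0.04 and 0.34, and 0.04 and 0.38 at days 3, 7 and 14, so that both arrays of every time lay above both controls. Its differences were 0.52, 0.33 and 0.40 ± 0.29 (adjusted p of 0.558, 1 and 0.722 in limma). Probe set 1452014_a_at had differences of 0.38, 0.34 and 0.26 ± 0.34, with overlapping arrays at all times. The mean of the 4 probe sets differed from control by 0.16, 0.18 and -0.09 ± 0.26 at days 3, 7 and 14, and the correlation between probe sets over the 8 arrays ran from -0.19 to 0.83 in the 6 pairings (median 0.41).

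**Figure D2:**
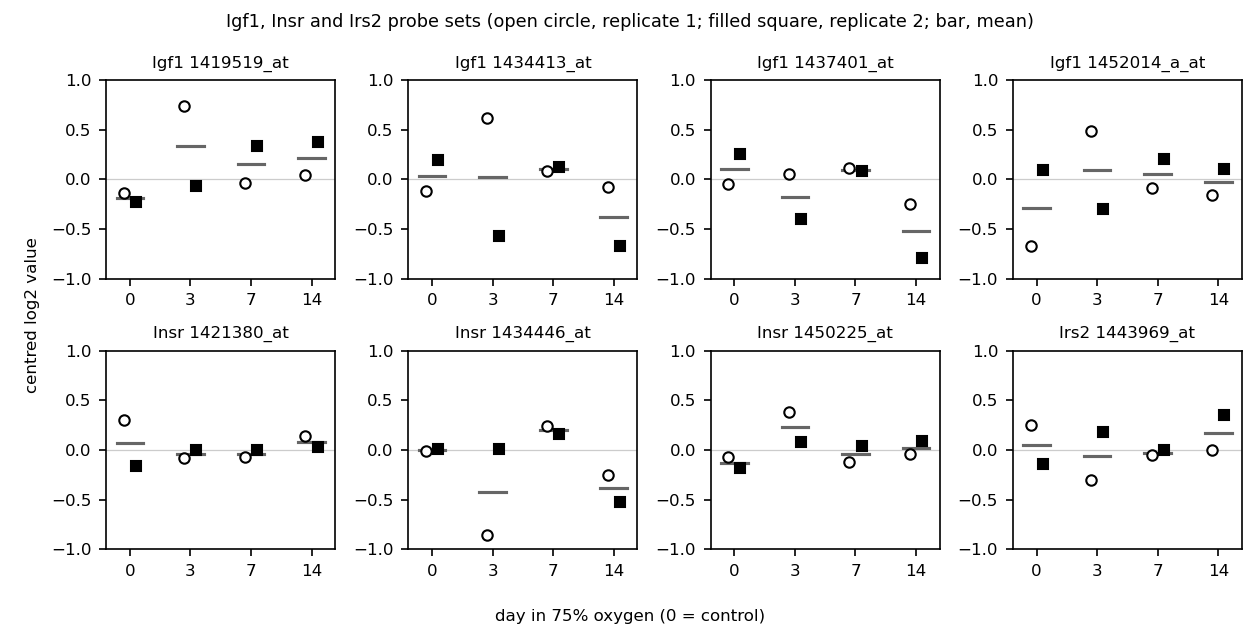
Centred log2 values of the *Igf1*, *Insr* and *Irs2* probe sets by day in 75% oxygen (open circles, replicate 1; filled squares, replicate 2; bars, mean of 2 arrays). Probe set 1419519_at of *Igf1* is above both control arrays at every time, whereas 1437401_at of the same gene is at -0.25 and -0.79 on the day 14 arrays.

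*Igf1r*, the receptor of IGF1, had 4 of its 5 probe sets below both controls on both arrays at day 3 and again at day 14. Over all probe sets this order was found for 17.8% at day 3 and 18.3% at day 14, and over the 27 members for 8 and 10, while at day 7 it was found for 2 (12.3%). Probe set 1426565_at, with the largest spread, stood at 0.14 and 0.23 in control, -0.69 and -0.51 on the day 3 arrays, 0.01 and 0.68 on those of day 7, and -0.01 and -0.65 on those of day 14. Both day 3 arrays lay below the controls, and so did both day 14 arrays. The difference from control was -0.79 ± 0.29 at day 3 (unadjusted p = 0.0298, adjusted p = 0.471, limma), 0.16 ± 0.29 by day 7 and -0.51 ± 0.29 by day 14 (adjusted p of 1 and 0.667). The day 3 value was -0.88 with replicate 2 of that time left out. The day 14 value moved by more than 1.5 times with either of its own arrays, being -0.84 without replicate 1 and -0.19 without replicate 2.

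The other *Igf1r* probe sets 1428967_at, 1446303_at and 1452982_at had differences of -0.69, -0.48 and -0.65 at day 3 and of -0.51, -0.37 and -0.30 at day 14. At day 7 their differences were -0.34, 0.44 and -0.01. On all 3 replicate 1 of day 3 was the lowest of the 8, at -0.67, -0.55 and -0.86, against 0.02, -0.02 and -0.03 on day 3 replicate 2. That array was the lowest of the 8 for 11 of the 27 members and for 20% of all probe sets. Probe set 1452108_at did not follow the others, at 0.18 and 0.00 in control, 0.00 and 0.28 at day 3, and -0.21 and 0.44 at day 14. Its correlation with the other 4 over the arrays reached -0.54 at the lowest, and the 10 pairings of *Igf1r* probe sets had a median r of 0.50. The mean of the 5 probe sets stood at 0.30 and 0.12 on the control arrays and -0.56 and -0.05 on the day 3 arrays. It differed from control by -0.51 ± 0.18 at day 3 (adjusted p = 0.427 over 18193 gene means, limma), 0.01 ± 0.18 by day 7 and -0.33 ± 0.18 by day 14. The day 3 value was -0.26 with replicate 1 of that time left out and -0.76 with replicate 2 left out.

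*Insr*, the insulin receptor, had probe sets that opposed each other. Probe set 1434446_at stood at -0.01 and 0.01 in control, -0.85 and 0.01 on the day 3 arrays, 0.24 and 0.16 on those of day 7, and -0.25 and -0.52 on those of day 14. Its day 3 mean rested on 1 array, and the difference of -0.42 ± 0.27 was 0.01 without day 3 replicate 1. The day 14 difference was -0.39 ± 0.27 (adjusted p = 0.716, limma), with both arrays below both controls, and -0.25 with replicate 2 of that time left out. Probe set 1450225_at ran opposite to it over the 8 arrays (r = -0.80), with day 3 arrays at 0.38 and 0.08 against controls at -0.07 and -0.18, a difference of 0.36 ± 0.16 (unadjusted p = 0.0605, limma). The last, 1421380_at, lay between -0.16 and 0.30 on all arrays. *Irs2*, the adaptor, was measured by 1443969_at alone, at 0.25 and -0.14 in control, -0.30 and 0.18 on the day 3 arrays, -0.05 and 0.00 on those of day 7, and 0.00 and 0.35 on those of day 14. Its arrays overlapped control at every time, and its differences were -0.11, -0.08 and 0.12 ± 0.23.

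*Akt1*, a kinase that restrains apoptosis, gave different answers on its 4 probe sets. Probe set 1425711_a_at, of a kind that matches more than one transcript of the gene, stood at -0.06 and 0.43 in control, 0.77 and -2.22 on the day 3 arrays, -0.77 and 0.87 on those of day 7, and 0.06 and -2.06 on those of day 14. The low values were those of the replicate 2 arrays of days 3 and 14, while the other array of each of these times was above or between the controls. Its differences were -0.91 ± 1.11 at day 3, -0.13 ± 1.11 by day 7 and -1.19 ± 1.11 by day 14 (adjusted p of 0.79, 1 and 0.778 in limma). The day 14 value was the only difference from control of 2-fold or more among the 27 members (background 2.11% of all probe sets, with 0 members and a background of 1.53% for day 3 and of 0.293% for day 7). The day 3 difference turned to 0.59 when replicate 2 of that time was left out, and the day 14 difference became -0.12 when its own replicate 2 was left out. At day 7 it was 0.69 without replicate 1 and -0.95 without replicate 2.

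The other *Akt1* probe sets did not show these swings. Probe set 1416657_at stood at -0.03 and 0.04 in control, -0.35 and 0.10 on the day 3 arrays, -0.11 and -0.14 on those of day 7, and 0.18 and 0.03 on those of day 14. Probe set 1440950_at lay between -0.24 and 0.25 and 1442759_at between -0.06 and 0.14 over the 8 arrays. The differences of these 3 probe sets from control ran from -0.13 to 0.09 at day 3 and from 0.06 to 0.10 at day 14. Over the 6 pairings of *Akt1* probe sets the correlation ran from -0.69 to 0.54, with a median of -0.17. On 1425711_a_at the replicate 2 arrays of days 3 and 14, which had the high 3' minus 5' values of *Gapdh*, lay below all of the other 6 by at least 1.29. A gap of 1 or more was found for 0.591% of all probe sets and any gap for 9.59%. Of the 27 members, 3 lay below the other 6 on these arrays, the others being the *Igf1* probe sets 1434413_at (gap 0.44) and 1437401_at (gap 0.15).

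**Figure D3:**
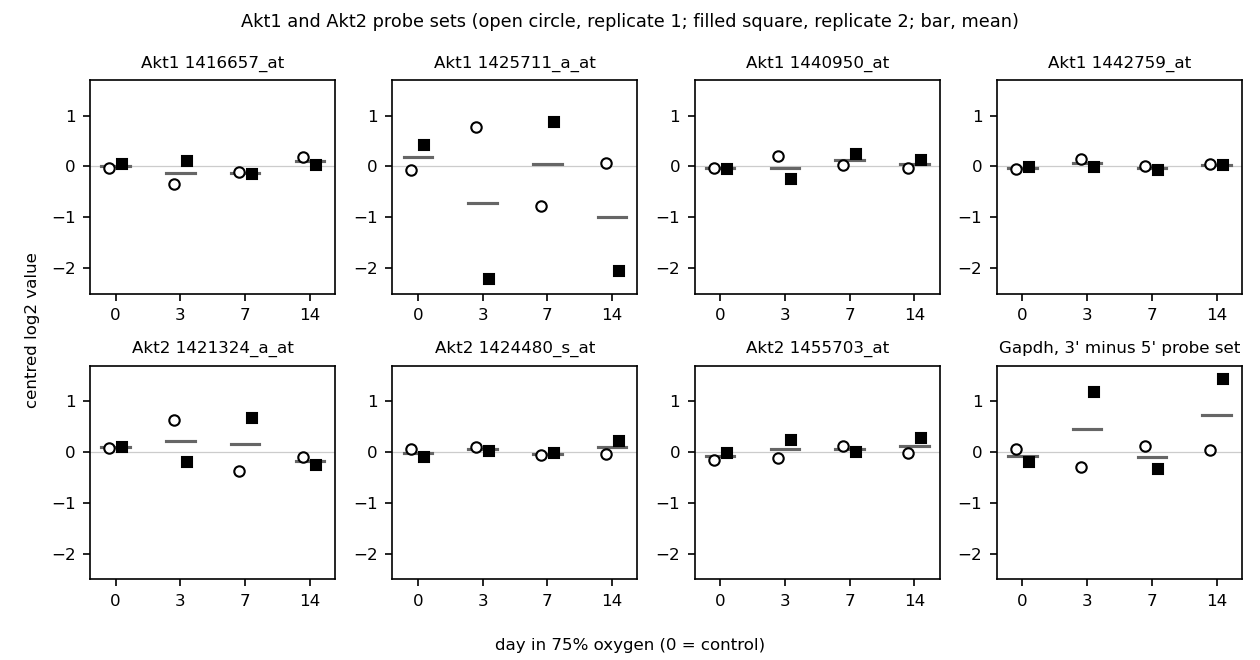
Centred log2 values of the *Akt1* and *Akt2* probe sets and, in the last panel, the 3' minus 5' probe set difference of *Gapdh*, by day in 75% oxygen (open circles, replicate 1; filled squares, replicate 2; bars, mean of 2 arrays). The filled squares of day 3 and day 14 are at -2.22 and -2.06 for *Akt1* 1425711_a_at and at 1.19 and 1.43 for *Gapdh*, while the other 3 *Akt1* probe sets stay near 0.

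*Akt2*, the form of AKT best known from insulin action, had 1 probe set with wider swings than the other 2. Probe set 1421324_a_at stood at 0.09 and 0.10 in control, 0.63 and -0.19 on the day 3 arrays, -0.37 and 0.68 on those of day 7, and -0.09 and -0.25 on those of day 14. Arrays of one time lay on opposite sides of control at day 3 and day 7, and both day 14 arrays lay below both controls (-0.27 ± 0.39, adjusted p = 0.852, limma). Probe set 1424480_s_at, of a kind whose probes may match other transcripts, lay between -0.10 and 0.23, and 1455703_at between -0.15 and 0.27. The differences of these 2 were 0.07 and 0.14 at day 3, and 0.11 and 0.21 at day 14.

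*Gsk3a*, the alpha form of the kinase that AKT inhibits, was measured by 1435638_at alone, at -0.10 and -0.10 in control, -0.01 and 0.07 on the day 3 arrays, -0.13 and 0.04 on those of day 7, and 0.01 and 0.35 on those of day 14. Both arrays were above both controls at day 3 and day 14, with differences of 0.13 and 0.28 ± 0.16 (adjusted p of 0.793 and 0.671, limma). The day 14 difference was 0.11 with replicate 2 of that time left out and 0.45 with replicate 1 left out. Such an order was found for 24.7% of all probe sets at day 3 and 27.7% at day 14, and for 3 and 4 of the 27 members, with 5 at day 7 (12.3%).

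*Gsk3b*, the beta form, which phosphorylates beta-catenin for destruction, had the probe sets that agreed best. All 15 pairings correlated above 0 over the 8 arrays (r of 0.35 to 0.93, median 0.66; 0.76 over the 6 arrays other than the replicate 2 arrays of days 3 and 14), as a description of probe sets that share their RNA. Probe set 1439949_at stood at 0.77 and 0.50 in control, -0.33 and -0.06 on the day 3 arrays, 1.13 and 0.06 on those of day 7, and -0.31 and -0.37 on those of day 14. The 4 arrays of day 3 and day 14 lay below the 4 of control and day 7. The differences from control were -0.83 ± 0.33 at day 3 (unadjusted p = 0.044, adjusted p = 0.477, limma), -0.04 ± 0.33 by day 7 and -0.98 ± 0.33 by day 14 (unadjusted p = 0.0232, adjusted p = 0.533). The day 3 and day 14 differences were -0.96 and -0.95 with replicate 2 of days 3 and 14 left out. As both arrays of each of these times lay below both controls, leaving out 1 could not change the direction.

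Probe set 1439931_at stood at 0.16 and 0.32 in control, -0.29 and -0.16 on the day 3 arrays, 0.73 and 0.16 on those of day 7, and -0.19 and -0.42 on those of day 14. Its day 3 and day 14 arrays again lay below all arrays of control and day 7, with differences of -0.46 and -0.54 ± 0.21 (adjusted p of 0.508 and 0.589, limma). Over the 6 probe sets the difference ran from -0.83 to -0.17 at day 3, from -0.04 to 0.21 by day 7 and from -0.98 to -0.10 by day 14. Both arrays lay below both controls on 4 of the 6 at day 3 and on 3 of the 6 at day 14. Probe sets 1451020_at and 1434439_at overlapped control at both times. The controls of 1451020_at were themselves far apart, at 0.72 and -0.32. Replicate 1 of day 3 was the lowest of the 8 arrays on 4 of the 6. The mean of the 6 probe sets stood at 0.39 and 0.07 on the control arrays, -0.52 and 0.00 on the day 3 arrays, and -0.18 and -0.24 on those of day 14. It differed from control by -0.49 ± 0.22 at day 3, 0.09 ± 0.22 by day 7 and -0.44 ± 0.22 by day 14 (adjusted p of 0.458, 1 and 0.627 over 18193 gene means, limma). The day 3 value was -0.23 with replicate 1 of that time left out and -0.76 with replicate 2 left out, and the day 14 value -0.29 with control replicate 1 left out.

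**Figure D4:**
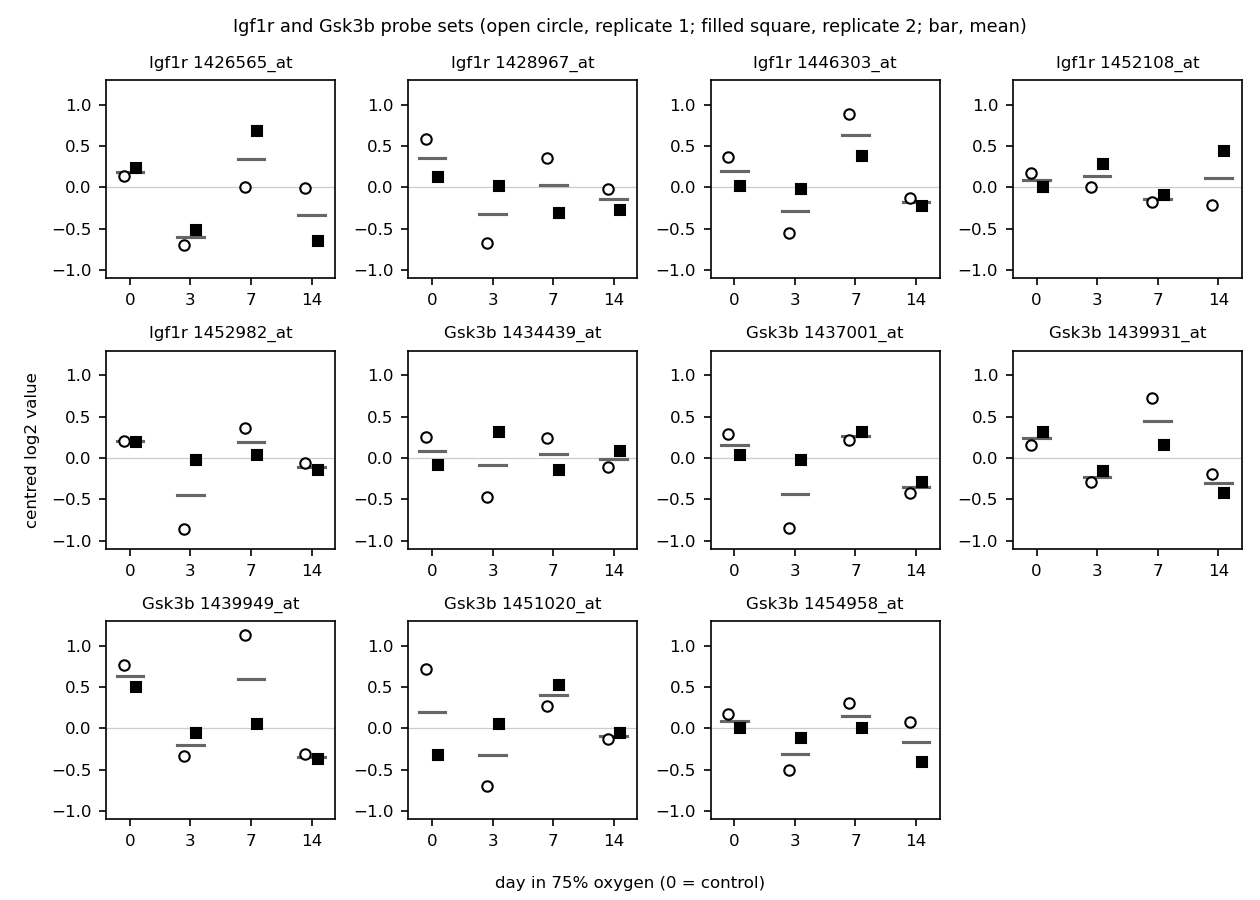
Centred log2 values of the 5 *Igf1r* and 6 *Gsk3b* probe sets by day in 75% oxygen (open circles, replicate 1; filled squares, replicate 2; bars, mean of 2 arrays). The mean is below control at day 3 and day 14 in every *Gsk3b* panel and in all *Igf1r* panels but 1452108_at, and for 1439949_at the day 14 arrays are at -0.31 and -0.37 against controls at 0.77 and 0.50.

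Most *Gsk3b* and *Igf1r* probe sets had a higher mean at day 7 than at the other times in oxygen. The exception in direction was *Igf1r* 1452108_at, whose day 7 mean was 0.27 lower than that of day 3 (-0.27 ± 0.23). *Gsk3b* 1434439_at and *Igf1r* 1428967_at had overlapping arrays both for day 7 against day 3 and for day 14 against day 7. Of the 27 members, 10 had both day 7 arrays above both day 3 arrays (16.5% of all probe sets), of which 5 were *Gsk3b* and 3 *Igf1r*, and 10 had both day 14 arrays below both day 7 arrays (16.7%), of which 4 were *Gsk3b* and 3 *Igf1r*. For *Igf1r* 1426565_at the day 7 mean was 0.95 ± 0.29 above that of day 3 (unadjusted p = 0.0139, adjusted p = 0.348, limma). For *Gsk3b* 1439931_at the day 14 mean was 0.75 lower than that of day 7 (-0.75 ± 0.21, unadjusted p = 0.0106, adjusted p = 0.413). At an unadjusted p under 0.05, 4 members differed between day 7 and day 3 (12.1% of all probe sets) and 4 between day 14 and day 7 (10.3%), and 0 passed adjusted p in limma in either comparison. Between day 14 and day 3 no member reached an unadjusted p under 0.05 (2.67% of all probe sets). *Akt1* 1425711_a_at differed by -0.28 ± 1.11 between these times, and by -1.06 ± 1.11 between day 14 and day 7, the only 2-fold difference of a member in that comparison (3.48% of all probe sets). The comparisons share arrays, so their values are not independent of each other.

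**Figure D5:**
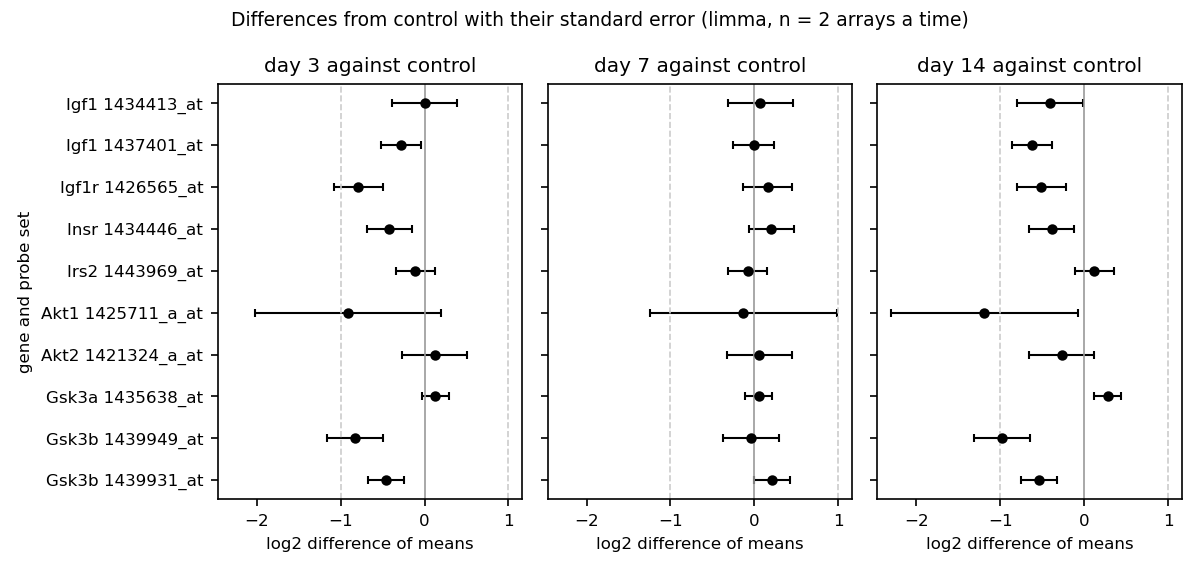
Differences of the mean of 2 arrays from the mean of the 2 control arrays (log2) with the standard error from limma as bars, at day 3, day 7 and day 14, for the 10 probe sets described in full; dashed lines mark 2-fold. *Gsk3b* 1439949_at is at -0.83 and -0.98 at day 3 and day 14, and *Akt1* 1425711_a_at has the widest bars, at 1.11.

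As a group the 27 probe sets had a median difference from control of -0.13 at day 3, 0.06 by day 7 and -0.24 by day 14, where the median over all probe sets was 0.04, 0.00 and 0.05. The mean was lower than control for 17 of 27 at day 3 (44.6% of all probe sets), 11 by day 7 (50.7%) and 15 by day 14 (42%). The standard errors of the members ran from 0.13 to 1.11 with a median of 0.25, so a difference of the size seen for most of them is within 2 standard errors.

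The wider pathway was read from 6 lists of 77 genes, of which 72 were measured by 173 probe sets. None of these passed adjusted p in limma at any time. At an unadjusted p under 0.05, 19 of the 173 differed at day 3 (7 higher and 12 lower; 11% against 10.3% of all probe sets), 0 at day 7, and 14 at day 14 (4 higher and 10 lower; 8.09% against 8.27%), so these shares were near the background.

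Among ligands, binding proteins and other receptors (12 genes, 23 probe sets), 15 probe sets were lower at day 3 (median -0.09) and 16 higher at day 14 (median 0.20). Over all probe sets 44.6% were lower and 55.4% higher at day 3, and 42% lower and 58% higher at day 14, and the counts of the lists are to be read beside these. *Igfbp6*, a protein that binds IGF2 above all, stood at 0.34 and 0.55 on the day 14 arrays against -0.50 and 0.08 in control (0.65 ± 0.22, adjusted p = 0.529, limma; 0.36 with control replicate 1 left out). The *Ins2* probe set, for insulin itself, had 0.48 ± 0.18 at day 14 (0.31 without replicate 2), and 1 of the 2 *Igf2r* probe sets had -0.72 ± 0.27 at day 3 (adjusted p of 0.567 and 0.472). Adaptors, phosphoinositide 3-kinase subunits and lipid phosphatases (13 genes measured, 33 probe sets) had medians of -0.08, 0.07 and -0.10 at days 3, 7 and 14, with 20, 10 and 19 probe sets lower. In this list *Pik3r1*, the regulatory subunit that docks on IRS proteins, had the smallest p: 1 of its 4 probe sets stood at -0.70 and -0.47 at day 3 against 0.23 and 0.44 in control and 0.38 and 0.54 at day 7 (-0.92 ± 0.20 at day 3, unadjusted p = 0.00275, adjusted p = 0.471, limma). Another *Pik3r1* probe set was 2-fold lower at day 3 (-1.25 ± 0.79) and day 14 (-1.55 ± 0.79), neither at an unadjusted p under 0.05 in limma. Its lowest values were -1.48 and -2.17, on the replicate 2 arrays of these times. The catalytic subunit *Pik3cb* had -0.56 ± 0.19 at day 3. On 1 of 2 probe sets the phosphatase *Inpp5d*, a gene of immune cells, stood at 0.04 and 0.81 on the day 14 arrays against -0.20 and -0.02 in control (0.53 ± 0.27). Without replicate 2 of that time the difference was 0.15. That array had microglial markers at 1.24, reactive glia markers at 1.35 and a *Gapdh* 3' minus 5' value of 1.43, which cannot be told apart here.

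Among kinases and phosphatases that act on AKT (10 genes measured, 24 probe sets), 15 probe sets were lower at day 3 (median -0.25) and 15 at day 14 (median -0.02). *Rictor*, of the complex that phosphorylates AKT, had -0.87 ± 0.24 at day 14 on 1 of 5 probe sets (adjusted p = 0.462, limma), where the arrays stood at -0.24 and -0.98 against 0.25 and 0.29, and -0.50 without replicate 2. Another *Rictor* probe set was 2-fold lower at day 3 (-1.19 ± 0.34) and day 14 (-1.17 ± 0.34; unadjusted p of 0.0102 and 0.011, adjusted p of 0.471 and 0.475, limma). A further one was 2-fold higher at day 7 (1.02 ± 0.65), where the arrays stood at -0.15 and 2.05. *Trib3*, a pseudokinase that binds AKT, had 0.59 ± 0.21 at day 14 on 1 of 2 probe sets (0.39 without replicate 2). *Phlpp1*, a phosphatase of AKT, had -0.58 ± 0.20 at day 3 (-0.30 without replicate 1). Targets of AKT (15 genes measured, 36 probe sets) had medians of 0.03, 0.03 and 0.06 at the successive times. *Casp9*, a caspase that AKT restrains, had 0.48 ± 0.14 at day 3 on 1 of 3 probe sets (adjusted p = 0.471, limma). *Foxo1*, a transcription factor that AKT keeps out of the nucleus, had -0.84 ± 0.26 at day 3 on 1 of 4 (adjusted p = 0.471). *Mdm2*, the ligase of p53, had -0.67 ± 0.23 at day 14 on 1 of 3 (adjusted p = 0.533). The *Foxo1* difference was -0.47 without replicate 1 of day 3, and that of *Mdm2* -0.40 without replicate 2 of day 14. A *Bcl3* probe set was 2-fold higher at day 3 (1.69 ± 0.9) and day 14 (1.72 ± 0.9), and one of *Eif4ebp1* at day 14 (1.05 ± 0.53). Both had their highest values on the replicate 2 arrays of days 3 and 14, and neither reached an unadjusted p under 0.05 in limma at these times.

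The beta-catenin arm of GSK3 (14 genes, 41 probe sets) had 29 probe sets lower at day 3 (median -0.20) and 17 lower at day 14 (median 0.09), and 24 higher at day 14. At an unadjusted p under 0.05, 6 were lower and 2 higher at day 3 (5.49% and 4.83% of all probe sets), and 6 lower and 0 higher at day 14 (5.13% and 3.14%). The smallest p-values were those of single probe sets of 3 genes that work with GSK3 on beta-catenin. *Csnk1a1*, the kinase that primes beta-catenin for GSK3, stood at -0.67 and -0.90 on the day 14 arrays against 0.14 and 0.80 in control on 1 of 5 probe sets (-1.26 ± 0.23, unadjusted p = 0.0012, adjusted p = 0.386, limma). *Apc*, the scaffold of the complex, stood at -0.43 and -0.81 against 0.17 and 0.36 (-0.89 ± 0.19, adjusted p = 0.412) on 1 of 4, and *Btrc*, the ligase subunit that reads the phosphorylated site, at -0.54 and -0.73 against 0.18 and 0.59 (-1.02 ± 0.23, adjusted p = 0.412) on 1 of 5. On these 3 probe sets both day 14 arrays lay below both controls. In the other direction, 4 probe sets were 2-fold or more higher at day 14, all of *Gja1*, which encodes a gap junction protein and is named here after its values were seen. Their differences ran from 1.3 ± 0.97 to 1.92 ± 0.84, none at an unadjusted p under 0.05, and the probe set with the largest of them stood at -2.19 and 0.31 in control and 0.97 and 0.98 at day 14. The third 2-fold lower probe set beside those of *Csnk1a1* and *Btrc* was of *Ctnnb1*, beta-catenin itself, at 0.22 and -2.40 on the day 14 arrays against -0.57 and 0.78. In the Toll-like receptor arm (8 genes measured, 16 probe sets), 12 were higher at day 14 (median 0.15) and 0 reached an unadjusted p under 0.05 at any time. The smallest p was that of 1 of 4 probe sets of *Tlr4*, the receptor of bacterial lipopolysaccharide (0.29 ± 0.13 at day 14). Next came *Cd14* and *Myd88*, its co-receptor and adaptor (0.58 ± 0.31 and 0.36 ± 0.23). A probe set of *Tollip* was 2-fold lower at day 3 (-1.11 ± 0.95), where the arrays stood at 0.11 and -1.43 against -0.11 and 1.0 in control. The day 14 arrays stood at 0.12 and 0.79 for *Cd14* and 0.18 and 0.53 for *Myd88*, and without replicate 2 the differences were 0.25 and 0.18. On that array microglial markers, reactive glia markers and 3' minus 5' control values were all high.

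The genes whose probe sets ran most like 4 of the members over the 8 arrays (Pearson's r, given as a description of values that share arrays and normalization) are named 3 to a member. *Akt1* 1425711_a_at was most like probe sets of *Rbbp4*, a histone chaperone (r = 0.99), *Sh3gl2*, an endophilin of synaptic vesicles (0.99), and *Pkia*, an inhibitor of protein kinase A (0.98), among 2107 probe sets with at least 0.5 of its SD. These also had their lowest values on the replicate 2 arrays of days 3 and 14, at -1.63 and -1.75, -2.72 and -2.59, and -2.13 and -1.85. *Igf1r* 1426565_at was most like *Mapt*, which encodes tau (0.99), *Ablim1*, an actin-binding protein, and *Prkce*, a protein kinase C (0.98 each). *Gsk3b* 1439949_at was most like *Ddhd1*, a phospholipase (0.99), *Gpc6*, a glypican, and *Fam214a* (0.98 each). *Igf1* 1434413_at was most like the splicing genes *Clk4* and *Sf3a3* and the nuclear gene *Dnttip2* (0.99 each).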

How the data were processed

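Retinal RNA of 4 groups (control and 3, 7 or 14 days in 75% oxygen, 2 arrays each) was measured on Affymetrix Mouse Genome 430 2.0 arrays, and arrays were grouped by the day and replicate in their titles. Per the labels the authors used RMA (version not given in the sources used here), which gives log2 values, and in the deposited table every probe set has a median over the 8 arrays of 0 to within 1e-06, a centring that the authors do not describe. The methods instead describe MAS5 with GCOS 1.4 and GeneSpring 7.3.1. Filters on dim probe sets could not be run, since no level is kept. Array medians lay between -0.02 and 0.03 and array SDs between 0.19 and 0.41, and the number of arrays limits the precision.

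Of 45101 probe sets, 64 controls were set aside. Probe sets were named through GEO's platform annotation (34945 with 1 gene, 932 with several, 9160 with none), and none was named from several genes. All 45037 probe sets were fitted in limma 3.58.1 under R 4.3.3, by lmFit with a mean for each of the 4 times and then eBayes (4 residual and 2.71 prior degrees of freedom), at a threshold of adjusted p of 0.05, after a test on simulated data. Means, correlations and motif counts were computed in Python 3.11.15 with pandas 2.3.3.

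Values on all arrays are given for the probe set of each gene with the largest SD and for those with an unadjusted p under 0.05 or a 2-fold difference from control. Probe sets 1419519_at, 1452014_a_at, 1450225_at and the other *Igf1r* and *Akt1* probe sets were added to show agreement within a gene, after their values were seen. For most of these added probe sets only some arrays, a range or the differences are given. Up to 3 genes of each pathway list were named by the smallest p, and for 4 members the 3 genes of highest r over the arrays. Pathway probe sets 2-fold from control were added after their values were seen. The members and lists were chosen with earlier results of these data known. The alternatives tried were subtraction of array medians, quantile normalization, a replicate block, robust eBayes, the 2 times alone, leaving out arrays, gene means, linear folds and the analysis of variance of the methods.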

Additional observations from a re-analysis of the deposited data

Results flagged for a closer look

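On *Igf1r* 1446303_at both day 7 arrays (0.89 and 0.38) lay above both control arrays (0.37 and 0.02), while both arrays of day 3 (-0.55 and -0.02) and of day 14 (-0.13 and -0.22) lay below them. The direct differences were 0.92 ± 0.25 for day 7 against day 3 (unadjusted p = 0.00855, adjusted p = 0.347, limma) and -0.81 ± 0.25 for day 14 against day 7 (adjusted p = 0.432). On *Insr* 1434446_at both day 7 arrays (0.24 and 0.16) lay above both controls (-0.01 and 0.01) and both day 14 arrays (-0.25 and -0.52) below them, with a difference of -0.59 ± 0.27 for day 14 against day 7 (adjusted p = 0.514, limma). None of these 3 differences passed. With 2 arrays a time, single arrays were not tested as outliers.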

How the results depend on the processing

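No member passed adjusted p in limma in any of the 6 comparisons between times, and the count stayed 0 under every limma alternative run. The lowest adjusted p in any of them was 0.0735, for day 7 against day 3 without day 3 replicate 2, and for day 3 against control it was 0.0922 without that array. Where 1 array of a time was left, it was assumed to vary like the other times. With the replicate block 0 passed, with a lowest adjusted p of 0.505 at day 3, 1 by day 7 and 0.563 by day 14. The methods list the arrays as 2 experiments with 1 array of every time in each, but no label ties a replicate number to an experiment, and the difference of replicate 2 from replicate 1 correlated between times at -0.40 to 0.55 over all probe sets, so they were not taken as pairs. The analysis of variance of the methods gave 2 members at day 3, 1 by day 7, 2 by day 14 and 1 for day 14 against day 7 at an unadjusted p under 0.05, and 0 after adjustment.

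The count of members 2-fold apart was small and moved with single arrays. At day 3 it was 0, and 3 without the replicate 2 arrays of days 3 and 14 (0 to 3 leaving out 1 array: 3 without day 3 replicate 2, and 1 each without day 3 replicate 1 or either control). At day 7 it was 0 throughout. At day 14 it was 1, 2 after subtraction of array medians, and 0 with folds from linear means, with both arrays required to be 2-fold from both controls, with gene means and without these arrays (0 to 2 leaving out 1 array: 2 and 0 with day 14 replicate 1 or 2 left out). For day 7 against day 3 it was 0, and 6 without these arrays (0 to 6: 6 and 1 with day 3 replicate 2 or 1 left out, and 2 with either day 7 array left out), for day 14 against day 3 it was 0 (0 to 1: 1 without either day 3 array or day 14 replicate 1), and for day 14 against day 7 it was 1, and 0 without these arrays, with both arrays required and with gene means (0 to 3: 3 and 2 with day 7 replicate 2 or 1 left out, and 0 with day 14 replicate 2 left out).

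Some differences from control changed sign. Without the replicate 2 arrays of days 3 and 14 the day 3 difference was 0.59 for *Akt1* 1425711_a_at and 0.59 for *Igf1* 1434413_at, and the day 14 difference of *Irs2* was -0.05. After quantile normalization *Akt2* 1421324_a_at had 0.00 at day 3 and -0.22 at day 7, and *Igf1* 1437401_at 0.02 at day 7. Gene means gave 0.16 for *Igf1* at day 3 and 0.18 at day 7, 0.01 for *Akt2* at day 14 and 0.09 for *Gsk3b* at day 7. Leaving out 1 array, the sign changed for *Igf1* 1434413_at at day 3 (-0.60 to 0.59) and day 7 (-0.09 to 0.22), *Igf1* 1437401_at at day 7 (-0.16 to 0.15), *Igf1r* 1426565_at at day 7 (-0.18 to 0.50), *Insr* 1434446_at at day 3 (-0.85 to 0.01), *Irs2* at day 3 (-0.35 to 0.13), day 7 (-0.27 to 0.11) and day 14 (-0.07 to 0.32), *Akt1* 1425711_a_at at day 3 (-2.40 to 0.59) and day 7 (-0.95 to 0.69), *Akt2* 1421324_a_at at day 3 (-0.29 to 0.53) and day 7 (-0.47 to 0.58), *Gsk3a* at day 7 (-0.03 to 0.14), and *Gsk3b* 1439949_at (-0.58 to 0.50) and 1439931_at (-0.08 to 0.49) at day 7. The other 15 of the 30 differences kept their direction, among them those of *Gsk3b* 1439949_at and 1439931_at at day 3 and day 14. For these *Gsk3b* differences both arrays lay below both controls, so leaving out 1 array could not change the sign. The leaving out of single arrays for the named pathway genes and for the gene means of *Igf1r* and *Gsk3b* was chosen after seeing the data. Both arrays lay on 1 side of both controls for each of these, so no sign could change, and only the sizes are informative. The cause was not tested. The median r between probe sets of *Akt1* was -0.17, and 0.08 after quantile normalization, and that of *Akt2* was -0.01, and -0.49 without the replicate 2 arrays of days 3 and 14.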
